A study of Mus musculus with 8 samples.

Results

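Pigmented cells were a small minority of the cells sorted as lymphatic endothelium from a mouse melanoma. They were chosen by 4 pigment genes and 2 endothelial genes: a cell of the lymphatic (LEC) sort was a member if it held at least 20 unique molecular identifiers (UMIs, each 1 captured RNA molecule) of Dct, Tyrp1, Pmel and Tyr together and under 5 UMIs of Pecam1 and Cdh5 together. The rule found 244 of the 4407 cells of the LEC sort, or 5.54% (exact Clopper-Pearson 95% interval 4.88 to 6.25), among 7635 cells in the whole series. The same rule found 13 of the 3228 cells of the blood endothelial (BEC) sort, or 0.403% (0.215 to 0.688). They were compared with 2561 cells of the LEC sort that held under 20 pigment UMIs and at least 1 UMI of Prox1, the transcription factor of lymphatic identity, called Prox1 cells here.

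The tumours were grown from MT-ret fragments placed on the ventral flank of 10 mice of the strain C57BL/6N, and all groups here come from these tumours. MT-ret names a melanoma that arose in mice with a RET oncogene driven by a metallothionein promoter, a promoter that is not limited to pigment cells. From the tumours, 10000 blood and 10000 lymphatic endothelial cells were isolated by fluorescence-activated sorting, and each sort gave 4 libraries (10x Chromium 3′ chemistry, v2). The surface markers of the sort, the age of the animals, and the number of animals behind each library are not given in the sources used here. The cell columns name the sort and no library, so each sort is 1 sample. No test between groups of samples was possible, no p-value is given, and every interval below is at the 95% level and covers counting error only.

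Melanocytes are neural crest derivatives that make melanin in melanosomes, organelles related to lysosomes. Tyr catalyses the rate-limiting step from tyrosine, Dct and Tyrp1 act on later intermediates of the brown-black pigment eumelanin, and Pmel forms the amyloid fibrils on which melanin is laid down. Mitf, the master regulator of the lineage, acts on these genes together with Sox10 and Pax3, and melanoma cells are known to move between states of high and low pigment gene expression.

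The pigmented cells held 6667973 UMIs, the Prox1 cells 33753125 and the pigmented cells of the BEC sort 437242. A pigmented cell had a median of 26718 UMIs (5710 to 49210) and a Prox1 cell a median of 11351, a ratio of 2.35. Thinned to 5000 UMIs each, the pigmented cells showed a median of 1762.5 genes and the Prox1 cells 1575. Mitochondrial UMIs were a median of 4.10% and 3.24%. The 2 sorts shared 34 cell barcodes, and 0 of them belonged to a pigmented cell. A further 35 cells of the LEC sort held at least 20 pigment UMIs together with at least 5 UMIs of Pecam1 and Cdh5, and the rule left them out. Levels below are in CPM, the count of a gene over all counts of the group, and are not scaled by gene length, since the kit counts RNA ends. Between the pigmented and the Prox1 cells, 5649 genes had a mean of at least 20 CPM. Of these, 635 (11.2%) were at least 2-fold higher and 917 (16.2%) at least 2-fold lower in the pigmented cells, and the median log2 ratio over all 5649 was -0.08.

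**Figure D1:**
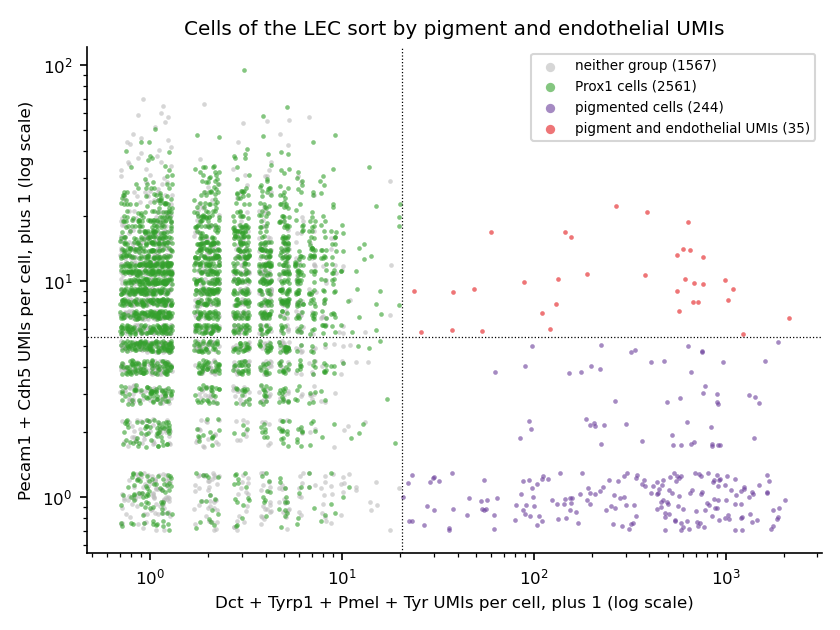
Each point is 1 cell of the LEC sort, placed by its UMIs of Dct, Tyrp1, Pmel and Tyr together (x axis, plus 1, log scale) and of Pecam1 and Cdh5 together (y axis, plus 1, log scale), with a random shift under 1 UMI to separate points, and dotted lines at the limits of the rule. The 244 pigmented cells lie at the lower right, the 35 cells with both kinds of UMI at the upper right, and the 2561 Prox1 cells and 1567 cells of neither group on the left.

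The label of these cells was checked with 7 melanocytic markers, 4 of which the rule had used. Mitf was at 309 CPM in the pigmented cells (295 to 322) and 4.89 CPM in the Prox1 cells, with a UMI in 73.0% and 2.85% of cells. Sox10 was at 155 CPM against 2.90 CPM, with a UMI in 82.8% of pigmented cells. Mlana, which encodes a melanosome protein that works with Pmel, was at 166 CPM against 1.96 CPM, but only 87 of the 244 cells held a UMI of it. All 7 markers were thus at least 2-fold higher in the pigmented cells, 3 of them without the rule having asked for it. RNA counts do not tell a melanoma cell from a melanocyte of the host skin, so the cells are called pigmented cells.

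Markers of other cell types were low. The T and NK cell markers (5 of 5) were at 0 UMIs in the pigmented cells. Of 5 markers of all leukocytes 4 were at 0, including Ptprc, and of 9 macrophage markers 4 were at 0, including Adgre1, C1qb and C1qc. The macrophage markers summed to 7.50 CPM in the pigmented and 94.8 CPM in the Prox1 cells. The fibroblast markers summed to 7.65 CPM against 186 CPM, with Col1a1, Col3a1 and Pdgfra at 0. Of 6 mural cell markers the one above 2 CPM was Cspg4, the melanoma proteoglycan also made by pericytes, at 120.3 CPM against 2.49 CPM. Pdgfrb and Tagln, which mark mural cells more strictly, were at 0.

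Lymphatic and endothelial RNA was present at a low level in nearly every pigmented cell. Of 21 lymphatic or general endothelial markers, 18 were at 2.24% to 5.75% of their level in the Prox1 cells. Prox1, Pecam1 and Cdh5 were among the 18, and their levels were set in part by the choice of the cells. Ccl21a, the chemokine of lymphatic vessels, was at 1351 CPM against 25739 CPM, or 5.25%, and 243 of 244 pigmented cells held a UMI of it. Its reads may be shared with near-identical gene copies. The pigmented cells of the BEC sort had 11.4 CPM of Ccl21a. In the other direction, the 4 pigment genes of the rule were at 0.621% to 0.779% of the pigmented level in the Prox1 cells. The choice of the cells had itself limited these UMIs to under 20 in a Prox1 cell. Mitf, Mlana and Sox10, outside the rule, were at 1.58%, 1.18% and 1.88%. A UMI of Dct was held by 48.9% of Prox1 cells. Of the 21 lymphatic or endothelial markers, those that stood apart were Fgl2, Sema3d and Eng, at 39.1%, 45.7% and 27.3% of the Prox1 level. Whether free RNA in the droplets or joined cells carried these UMIs was not tested. Of the pigmented cells, 188 held 10 or fewer UMIs of 15 such markers (Pecam1, Cdh5, Ccl21a, Fgl2, Sema3d and Eng not counted), and 17 held 30 or more. Without those 17 cells, a limit set after the values were seen, 652 genes were at least 2-fold higher and 941 at least 2-fold lower.

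The pigment sum had no gap at the limit. Counted in steps that start at 20, 50, 100, 200, 500 and 1000 pigment UMIs, the members numbered 18, 27, 31, 57, 72 and 39, with a median of 459.5 and a highest value of 2032. Just inside the limit, 11 members with 20 to 29 pigment UMIs had Sox10 at 162 CPM, Syt4 at 814 CPM, Gpnmb at 597 CPM and Prox1 at 0. Just outside it, 23 cells with 10 to 19 pigment UMIs and under 5 endothelial UMIs had Sox10 at 130 CPM, Syt4 at 364 CPM, Gpnmb at 408 CPM, Prox1 at 151 CPM and Ccl21a at 15649 CPM. These are sums over a mixed group: UMIs of Ccl21a per cell ran from 5 through a median of 18 to 1031 in the 23 cells, and the median for Prox1 was 0.

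Promoter sequences are shown because levels of the pigment genes went together across cells, as described further below. The rule had chosen the cells by the sum of these genes. The genes also share a known element, the M-box, an E-box extended by a T that Mitf is known to bind. The letters TCATGTG or, on the other strand, CACATGA were searched in the 250 bases before the start of each gene in RefSeq (GRCm38.p6). The windows of Dct (which held both), Tyrp1 and Tyr all contained it, and Pmel had no entry in the promoter table. Over all 32851 promoters of the table, 3.25% contained it. Of the 12 genes that led the pigmented cells 7 had an entry and 3 contained it, the same Dct, Tyrp1 and Tyr. Of the other melanosome genes listed 3 of 13 contained it (Slc24a5, Trpm1 and Slc7a11). It also lay before Mc1r, given as a single example, since the share among receptor or regulator genes was not counted. A match of letters is a description and not evidence of binding. The windows of Dct (chr14:118052247-118052496, minus strand), Tyr (chr7:87493513-87493762, minus strand), Trpm1 (chr7:64153585-64153834, plus strand) and Mc1r (chr8:123406832-123407081, plus strand) are given 5′ to 3′ with the motif in capitals.
Dct: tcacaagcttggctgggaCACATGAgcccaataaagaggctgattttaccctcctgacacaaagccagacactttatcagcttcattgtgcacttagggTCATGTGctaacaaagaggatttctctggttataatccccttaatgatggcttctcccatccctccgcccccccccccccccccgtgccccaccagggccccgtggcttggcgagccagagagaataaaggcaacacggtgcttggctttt
Tyr: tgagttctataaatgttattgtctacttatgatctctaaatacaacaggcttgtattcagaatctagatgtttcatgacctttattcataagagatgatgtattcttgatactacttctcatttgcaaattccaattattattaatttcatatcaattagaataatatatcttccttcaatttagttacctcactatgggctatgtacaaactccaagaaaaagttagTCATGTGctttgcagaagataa
Trpm1: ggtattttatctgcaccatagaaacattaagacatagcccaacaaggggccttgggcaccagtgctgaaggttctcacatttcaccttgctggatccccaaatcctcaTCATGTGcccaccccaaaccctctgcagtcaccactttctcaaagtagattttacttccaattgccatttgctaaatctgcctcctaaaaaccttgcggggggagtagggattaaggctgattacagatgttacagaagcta
Mc1r: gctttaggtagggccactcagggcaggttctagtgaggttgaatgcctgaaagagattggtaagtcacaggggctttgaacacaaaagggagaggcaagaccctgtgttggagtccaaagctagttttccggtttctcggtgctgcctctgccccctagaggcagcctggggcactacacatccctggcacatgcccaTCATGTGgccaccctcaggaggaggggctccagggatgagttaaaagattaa

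The motif ended 16 bases before the start of Tyr and 46 bases before that of Mc1r. In Dct the 2 copies ended 226 and 145 bases before the start, and in Trpm1 the motif ended 136 bases before it. In Tyrp1 it ended 41 bases before the RefSeq start, at a place that the GENCODE annotation already counts as exon.

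Dct supplied most of the pigment UMIs. Its UMIs per pigmented cell ran from 17 through a median of 392.5 to 1944, and it made up 83.7% of the UMIs of the 4 genes. Dct lies at chr14:118012790-118052244 on the minus strand of GRCm38. It was at 16949.5 CPM against 105 CPM in the Prox1 cells, 161-fold higher (156 to 166). The 4 genes together took 2.02% of all UMIs of the pigmented cells, and these cells, with 11.2% of the UMIs of the LEC sort, held 85.7% of its Dct UMIs. These values were the ground of the choice and are given as a description.

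The other 3 pigment genes were less even. Tyrp1 ran from 0 through a median of 14.5 to 433 UMIs per cell, and 186 of 244 cells held it. Tyr ran from 0 through 10 to 99 UMIs and was present in 192 cells. Pmel ran from 0 through 8.5 to 329 UMIs and was present in 182 cells. A total of 138 cells held all 4 genes, and 18 cells held Dct with none of the other 3. Their levels were 1795, 589.5 and 909 CPM, against 11.8, 4.38 and 7.08 CPM in the Prox1 cells.

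The rest of the melanosome machinery was present too. Of 18 melanosome genes beside the 4 of the rule 10 passed the minimum of 20 CPM. All 10 were at least 2-fold higher in the pigmented cells, against 11.2% of all genes. Their median log2 ratio was 4.26, against -0.08 over all genes. A listed gene that the Prox1 cells lack could pass only through the pigmented cells. Gpnmb, a glycoprotein of melanosomes and lysosomes, was at 2579 CPM against 34.0 CPM (75.9-fold, 71.5 to 80.6) and ran from 0 through 62 to 238 UMIs per cell. The melanosome transporter Slc45a2 was at 386 CPM against 3.56 CPM (109-fold, 90.4 to 131). Slc24a5, a cation exchanger needed for pigmentation, was at 149 CPM against 16.7 CPM, the smaller ratio of the pair at 8.94.

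The 3 genes of the complex that ties melanosomes to actin were all higher. Rab27a was at 38.4 CPM against 4.77 CPM, its adaptor Mlph at 69.1 CPM against 0.593 CPM and the motor Myo5a at 96.9 CPM against 5.78 CPM. Rab38, a GTPase that delivers cargo to melanosomes, was at 172 CPM against 6.37 CPM. Bace2, the protease that cuts Pmel for fibril formation, was at 150.4 CPM against 8.95 CPM.

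Other melanosome genes were rare. Oca2, a melanosome ion transporter, was at 13.3 CPM in the pigmented cells and at 0 in the Prox1 cells, at least 150-fold higher against a floor of 3 counts over the Prox1 cells. It was found in 9.84% of pigmented cells. Gpr143 was at 8.40 CPM, Mreg at 3.15 CPM and Mcoln3 at 0. Slc7a11, the cystine carrier behind the yellow-red pigment pheomelanin, had 1 UMI in all 244 cells, or 0.150 CPM.

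**Figure D2:**
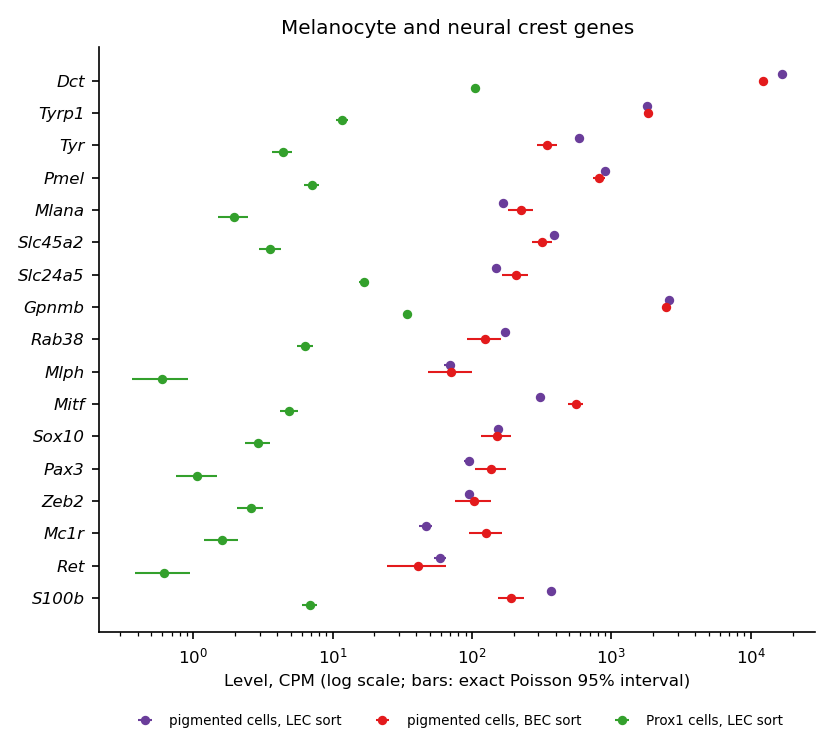
Level of 17 pigment, melanosome, regulator, receptor and glial lineage genes in CPM (x axis, log scale) in the pigmented cells of the LEC sort, the pigmented cells of the BEC sort and the Prox1 cells, with exact Poisson 95% intervals. For every gene shown both groups of pigmented cells lie to the right of the Prox1 cells.

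Among 14 regulators of the lineage 6 passed the minimum. Of these, 5 were at least 2-fold higher and 1 lower, against 11.2% and 16.2% of all genes. Pax3, which with Sox10 switches on Mitf, was at 95.5 CPM against 1.07 CPM (89.6-fold, 64.0 to 129). Tfap2a was at 42.3 CPM against 0.622 CPM. Mitf itself ran from 0 through a median of 4 to 79 UMIs per cell and Sox10 from 0 through 3 to 17.

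The 2 related repressors Zeb1 and Zeb2, which melanoma cells are known to exchange for each other, stood in opposite order. Zeb2, the member linked to the differentiated melanocytic state, was at 96.1 CPM against 2.58 CPM in the Prox1 cells. Zeb1, linked to the dedifferentiated state, was at 20.2 CPM in the pigmented cells and 79.6 CPM in the Prox1 cells, 3.93-fold lower (3.31 to 4.71). Sox9, another neural crest factor, was at 13.3 CPM, and Foxd3 was at 1.35 CPM.

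Among 11 receptors 3 passed. The row Ret, the receptor whose oncogenic form started this tumour line, was at 58.9 CPM against 0.622 CPM, 94.7-fold higher (61.1 to 155), with a UMI in 59.4% of pigmented cells and up to 18 UMIs in a cell. Ret is the mouse gene at chr6:118151745-118197718 on the minus strand; the table held 0 rows for a human RET, and UMIs of the transgene and of the mouse gene cannot be told apart. Mc1r, the melanocortin receptor that directs eumelanin synthesis, was at 46.5 CPM against 1.60 CPM. Ednrb, the endothelin receptor of melanoblasts, was 21.8-fold lower at 6.75 CPM against 147 CPM.

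Receptors below the minimum still had values. Kit, the receptor of stem cell factor in melanocytes, was at 1.35 CPM with UMIs in 1.64% of pigmented cells. Erbb3 was at 37.3 CPM against 0.978 CPM, and Gfra1, a co-receptor of Ret, at 16.8 CPM against 0.267 CPM. Ngfr, the nerve growth factor receptor of neural crest-like melanoma states, was at 7.50 CPM, with 32.0% of its UMIs in 1 cell. Egfr had 0 UMIs.

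Some genes shared with the glial branch of the neural crest were high. Of 8 Schwann cell markers 4 passed, and all 4 were at least 2-fold higher, against 11.2% of all genes. The minimum itself favours this count, since markers that the Prox1 cells lack could pass only through the pigmented cells. This holds for the regulators and receptors too. S100b was at 369 CPM against 6.84 CPM and Cdh19 at 50.1 CPM against 1.72 CPM. The other 4 were under the minimum, among them Mbp, the myelin basic protein, at 35.2 CPM against 0.178 CPM, and Egr2, a transcription factor of myelination, at 1.80 CPM against 6.61 CPM.

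The 12 genes with the highest ratio over the Prox1 cells, among genes of at least 50 CPM found in at least 25% of cells, were Dct, Syt4, Tyrp1, Tyr, Car14, Pmel, Mlph, Slc45a2, Ptgds, Ret, Kcnn4 and Pax3. Syt4, a synaptotagmin of vesicle traffic, ran from 0 through 45 to 248 UMIs per cell. It was at 2047 CPM against 13.4 CPM (153-fold, 139 to 168), a ratio like those of the genes used for selection. Ptgds, a prostaglandin D synthase known in melanocytes, was at 1825 CPM against 18.5 CPM. Car14, a membrane carbonic anhydrase, was at 62.1 CPM against 0.474 CPM, and Kcnn4, a calcium-activated potassium channel, at 234 CPM against 2.58 CPM.

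The 12 genes that led the Prox1 cells were Icam1, Ccl2, Slc38a4, F2rl1, Scn3a, Stap2, Prox1, Pecam1, Ttyh1, Pglyrp1, Tie1 and Cd24a, of which the rule had used Prox1 and Pecam1. Icam1, a leukocyte adhesion molecule, was at 0.900 CPM in the pigmented cells against 96.9 CPM. Slc38a4, an amino acid carrier, was at 1.65 CPM against 104 CPM, and F2rl1, a protease-activated receptor, at 2.85 CPM against 150.2 CPM.

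**Figure D3:**
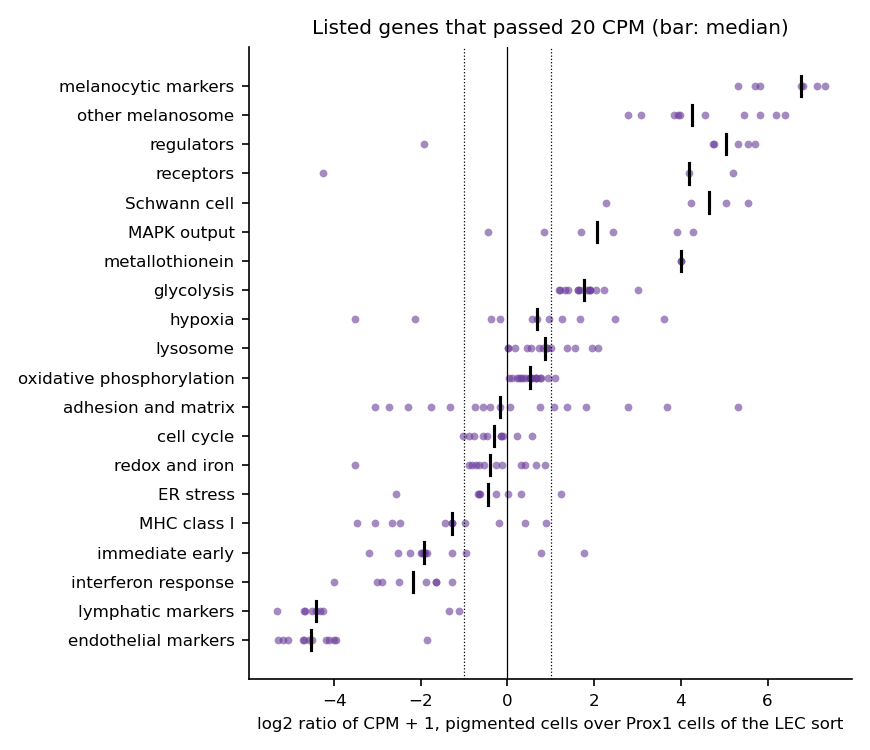
Log2 ratio of CPM plus 1 (x axis) between the pigmented and the Prox1 cells for every listed gene that passed 20 CPM, by gene list (y axis), with the median as a bar, a line at 0 and dotted lines at 2-fold either way. Pigment and glial lineage lists lie furthest right, all glycolysis genes lie beyond 2-fold, and interferon response, lymphatic and endothelial lists lie on the left.

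Some genes induced by MAPK signalling, a pathway downstream of Ret, were higher. Of 13 listed genes 6 passed, with 4 at least 2-fold higher and 0 lower, against 11.2% and 16.2% of all genes. The median log2 ratio of the 6 was 2.07. A listed gene that the Prox1 cells lack could pass only through the pigmented cells. Phlda1 ran from 0 through 34 to 232 UMIs per cell and was at 1505 CPM against 77.1 CPM (19.5-fold, 18.7 to 20.4). The feedback inhibitors Spry1 and Spry2 were at 102 and 73.5 CPM against 30.9 and 12.7 CPM. Etv1, a transcription factor of the same output, was at 63.7 CPM against 3.32 CPM. Dusp6, a phosphatase that dampens ERK, was not among them, at 84.9 CPM against 115 CPM.

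Metallothioneins, small metal-binding proteins whose promoter drives the transgene, were high. Mt1 ran from 0 through 37.5 to 290 UMIs per cell. It was at 2016 CPM against 125 CPM (16.2-fold, 15.6 to 16.7), and Mt2 at 511 CPM against 30.8 CPM (16.6-fold, 15.5 to 17.8). Mtf1, the metal-sensing transcription factor that acts on both, was at 13.0 CPM against 17.6 CPM, under the minimum.

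All glycolysis genes that passed were higher. Of 15 listed 14 passed and 14 were at least 2-fold higher, by 2.27 to 9.79-fold, against 11.2% of all genes. The median log2 ratio was 1.76. Ldha, which makes lactate, ran from 0 through 51 to 289 UMIs per cell and was at 2498 CPM against 803 CPM (3.11-fold, 3.05 to 3.17). Pkm was at 2158 CPM against 526 CPM, and Eno1 at 1009 CPM against 213 CPM. Slc16a3, the lactate exporter, was at 208 CPM against 54.9 CPM. Hk2 did not pass, at 7.35 CPM.

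Nuclear genes of oxidative phosphorylation differed less. All 19 passed and all 19 had the higher level in the pigmented cells, but 1 was at least 2-fold higher, and the median log2 ratio was 0.53. Of 14 lysosome genes that passed 5 were at least 2-fold higher and 0 lower, against 11.2% and 16.2% of all genes. They included the proteases Ctsb, at 3816 CPM against 891 CPM, and Ctsd, at 1317 CPM against 445 CPM, and Cd63, a tetraspanin that also sorts Pmel, at 4629 CPM against 1793 CPM.

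Hypoxia genes were divided. Of 11 that passed 4 were at least 2-fold higher and 2 lower, against 11.2% and 16.2% of all genes. The count of lower genes thus does not set the list apart. Car9, a pH-regulating carbonic anhydrase, was at 61.3 CPM against 4.12 CPM, but 13.1% of cells held a UMI of it. Bnip3, a mitophagy receptor, was at 458 CPM against 81.6 CPM, and Ero1l and Higd1a were also higher. Ndrg1 was 11.9-fold lower (10.3 to 13.8) at 29.2 CPM against 347 CPM, and Ddit4, an inhibitor of mTOR signalling, 4.51-fold lower. Across the 244 cells thinned to 5000 UMIs, the summed hypoxia and glycolysis UMIs had a Spearman rho of 0.82, a description over cells that share a sort and its libraries.

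Cell division genes did not stand apart. Of 12 listed genes 10 passed, 0 were at least 2-fold higher and 1 was lower, against 11.2% and 16.2% of all genes. The lower one was Tyms, a thymidylate synthase, at 43.0 CPM against 89.2 CPM. Thinned to 5000 UMIs, 18.9% of the pigmented cells (14.1 to 24.3) and 22.3% of the Prox1 cells (20.7 to 23.9) held at least 2 UMIs of the list. Unthinned, the shares were 48.0% and 38.6%, with the median depths given above. Top2a was found in 5.74% of pigmented cells, and 1 cell held 42.7% of its UMIs there. Cdkn1a, the p53 target that arrests the cycle, was at 376 CPM against 258 CPM, and Cdkn2a, the tumour suppressor locus often lost in melanoma, at 0.600 CPM against 8.18 CPM.

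Antigen presentation genes were lower in part. Of 11 genes of the MHC class I list that passed 7 were at least 2-fold lower and 0 higher. Over all genes these shares were 16.2% and 11.2%. The median log2 ratio of the 11 was -1.28. Here and for the interferon genes below, a gene low in the pigmented cells could pass through the Prox1 cells alone. The heavy chain H2-D1 ran from 0 through 25 to 159 UMIs per cell and was at 1103 CPM against 2677 CPM (2.43-fold lower, 2.37 to 2.49). H2-K1 was at 333 CPM against 809 CPM; heavy chain genes resemble each other, and how their reads were divided is uncertain. The peptide transporter subunits Tap1 and Tap2 were at 7.05 and 15.1 CPM against 43.8 and 101 CPM. Psmb8 and Psmb9, of the immunoproteasome, were at 21.0 and 6.75 CPM against 182 and 84.8 CPM. B2m, the light chain, differed little at 3157 CPM against 3617 CPM. Psmb10 was also within 2-fold, and so were the ER chaperones Calr and Pdia3, which stood higher in the pigmented cells, at 997 and 962 CPM against 540.4 and 726 CPM.

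Interferon response genes were lower as well. All 8 that passed were at least 2-fold lower, against 16.2% of all genes, with a median log2 ratio of -2.19. Ifitm3, an antiviral membrane protein, was at 1331 CPM against 4869.6 CPM (3.66-fold lower, 3.58 to 3.74), and Isg15 at 41.5 CPM against 342 CPM. Irf1, a transcription factor induced by interferon-gamma, was at 5.40 CPM against 35.4 CPM. Ifit3, under the minimum, was at 21.6 CPM against 16.6 CPM. Ifit1 was found in 4.10% of pigmented cells, and 1 cell held 67.8% of its UMIs.

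Ligands of immune checkpoints went both ways. Cd200, whose receptor restrains myeloid cells, ran from 0 through 16 to 115 UMIs per cell and was at 824 CPM against 217 CPM (3.80-fold, 3.67 to 3.93). Cd47, the signal against phagocytosis, was 4.77-fold lower (4.48 to 5.09) at 147 CPM against 704 CPM. Lgals9 was at 26.7 CPM against 158 CPM, and Pvr was within 2-fold. Cd274, which encodes PD-L1, was at 5.55 CPM against 3.82 CPM, and Pdcd1lg2 had 0 UMIs. Together 4 of the 9 genes in the table passed, 1 at least 2-fold higher and 2 lower, against 11.2% and 16.2% of all genes.

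Of 12 chemokine and cytokine genes 5 passed, 2 at least 2-fold higher and 3 lower, against 11.2% and 16.2% of all genes. Mif, a macrophage cytokine, ran from 0 through 30 to 269 UMIs per cell and was at 1558 CPM against 555 CPM. Spp1, osteopontin, was at 358 CPM against 46.8 CPM, but 1 cell with 1502 UMIs held 62.9% of its UMIs and 19.3% of cells held any. The monocyte attractants Ccl2 and Ccl7 were at 10.8 and 3.90 CPM in the pigmented cells against 777 and 243 CPM.

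**Figure D4:**
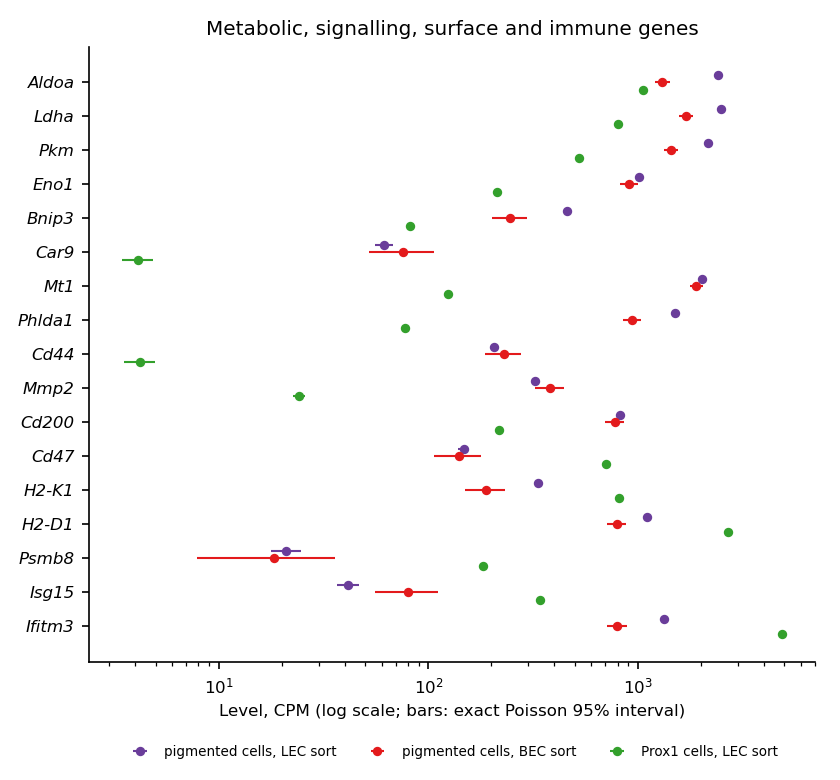
Level of 17 metabolic, signalling, surface and immune genes in CPM (x axis, log scale) in the pigmented cells of the LEC sort, the pigmented cells of the BEC sort and the Prox1 cells, with exact Poisson 95% intervals. From Aldoa to Cd200 the pigmented cells of the LEC sort lie right of the Prox1 cells, and from Cd47 to Ifitm3 they lie left of them.

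Adhesion and matrix genes were mixed, with 6 at least 2-fold higher and 5 lower of 17 that passed, against 11.2% and 16.2% of all genes. Cd44, the hyaluronan receptor, ran from 0 through 4 to 28 UMIs per cell and was at 207 CPM against 4.21 CPM (49.2-fold, 41.3 to 58.8). Mmp2, a gelatinase, was at 321 CPM against 24.2 CPM. Sparc, a matrix glycoprotein, was at 3853 CPM against 564 CPM, and Mcam, the melanoma cell adhesion molecule, at 90.9 CPM against 25.2 CPM. Fn1 and Timp1 were also higher. Lower genes included the basement membrane genes Lamb1, Lamc1 and Col4a1 and the inhibitor Timp3, at 106 CPM against 711 CPM. Cdh2, N-cadherin, was at 28.8 CPM against 0.593 CPM, under the minimum, and Cdh1, E-cadherin, had UMIs in 0.820% of cells.

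Growth factors of vessels were sparse. Vegfc, the main lymphatic growth factor, was at 6.30 CPM against 1.54 CPM, and Vegfa at 19.2 CPM against 7.14 CPM, both under the minimum. Pdgfa was at 137 CPM against 58.7 CPM and Vegfb at 46.9 CPM against 21.2 CPM. The other 3 of the 5 genes that passed were lower. Angpt2 was at 53.2 CPM against 363 CPM, Pgf at 28.9 CPM against 259 CPM and Thbs1 at 7.80 CPM against 155 CPM. Among all genes 11.2% were at least 2-fold higher and 16.2% lower.

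Immediate early genes, which tissue dissociation is known to induce, were at least 2-fold lower in 9 of 12 that passed, against 16.2% of all genes. The median log2 ratio of the 12 was -1.91. Fos was at 1633 CPM against 3938 CPM and Egr1 at 65.4 CPM against 607 CPM. The heat shock gene Hspa1a was the exception, at 196 CPM against 56.7 CPM, with 25.6% of its UMIs in 1 cell. Of 8 ER stress genes that passed 1 was at least 2-fold higher (Ddit3) and 1 lower (Trib3). These counts were near the 11.2% and 16.2% of all genes and do not set the list apart. Of 12 redox and iron genes 0 were higher and 1 lower, Nqo1 at 10.0 CPM against 126 CPM.

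Outside mitochondrial and ribosomal protein genes, the 10 genes with the most UMIs in the pigmented cells were Dct, Malat1, Tmsb4x, Fth1, Lgals1, Cst3, Cd63, Ppia, Sparc and Ctsb. Lgals1, a galectin, was at 6121 CPM against 788 CPM, and Cst3, a secreted protease inhibitor, at 6024 CPM against 1152 CPM. Tmsb4x, Ppia, Malat1 and Fth1 were within 2-fold of the Prox1 cells.

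The pigmented cells differed widely among themselves. They were ranked by the share of their UMIs in Tyrp1, Pmel and Tyr and divided into terciles of 82, 81 and 81 cells, a division chosen after the values were seen. Median depth went with it, at 19771.5 UMIs in the least, 27207 in the middle and 33843 in the most pigmented tercile, and its part in what follows was not tested. Of 5196 genes with a mean of at least 20 CPM in the outer terciles, 147 (2.83%) were at least 2-fold higher and 363 (6.99%) at least 2-fold lower in the most pigmented tercile, with a median log2 ratio of -0.07. Dct was not used in the ranking, but the rule had used it to choose the cells. It was at 23399 CPM in the most and 7179 CPM in the least pigmented tercile. Tyrp1, which was used in both, stood at 3805 CPM and 83.2 CPM.

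Other pigment genes followed. Trpm1, the melanocyte channel whose promoter holds the motif shown above, was at 119.7 CPM in the most and 2.38 CPM in the least pigmented tercile (50.3-fold, 19.5 to 186). Mlana was at 333 CPM and 36.9 CPM, and Slc45a2 at 668 CPM and 129 CPM. Of the 10 other melanosome genes that passed 9 were at least 2-fold higher in the most pigmented tercile and 0 lower. The shares over all genes were 2.83% and 6.99%. Hpgds, a second prostaglandin D synthase, was at 104 CPM and 12.5 CPM. Spp1 and Hspa1a, at 794 and 237 CPM in the most and 86.2 and 28.5 CPM in the least pigmented tercile, were also among the 8 leading genes, and for each of them 1 cell held a large share of the UMIs, given above.

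Mitf and Sox10 were closer together between the terciles than the genes above. Mitf was at 346 CPM in the most and 247 CPM in the least pigmented tercile, a ratio of 1.40 (1.25 to 1.58). Sox10 was at 140.0 CPM and 181 CPM, a ratio of 0.775 (0.664 to 0.904), and Syt4 at 2319 CPM and 1545 CPM. Of 6 regulators that passed 0 were at least 2-fold higher in the most pigmented tercile, where 2.83% of all genes were, so the count does not set the list apart. Of the 6, 1 was at least 2-fold higher in the least pigmented tercile, against 6.99% of all genes. Zeb1, under the minimum between the terciles, was lower in the most pigmented one, at 8.89 CPM against 30.3 CPM.

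Of 5 Schwann cell markers that passed in the terciles 3 were at least 2-fold higher in the least pigmented tercile and 0 in the most, against 6.99% and 2.83% of all genes. Mbp was at 78.5 CPM in the least and 13.0 CPM in the most pigmented tercile. Ngfr, under the minimum, was at 26.2 CPM against 0.741 CPM, and 1 cell held a large share of its UMIs, given above. Cd200 was at 1232 CPM against 449 CPM (2.75-fold, 2.56 to 2.95). Fn1 was at 2114 CPM against 657 CPM, Mcam at 147 CPM against 44.1 CPM and Cspg4 at 206 CPM against 62.6 CPM. Of 17 adhesion and matrix genes that passed 6 were at least 2-fold higher in the least pigmented tercile and 0 in the most.

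The 8 genes with the highest ratio in the least pigmented tercile, among those of at least 100 CPM there, were Col2a1, Aqp1, Cp, Fgl2, Lmo4, Serpina3n, Shisa2 and P3h2. Col2a1, the collagen of cartilage, was at 103 CPM against 4.08 CPM. Aqp1, a water channel, was at 596 CPM against 66.3 CPM, and the protease inhibitor Serpina3n at 1687 CPM against 323 CPM. Fgl2, counted above among the lymphatic markers, was at 926 CPM against 158 CPM, Lyve1 at 108 CPM against 44.1 CPM and Ccl21a at 1461 CPM against 988 CPM. Of 5 lymphatic markers that passed 4 were at least 2-fold higher in the least pigmented tercile and 0 in the most. Over all genes these shares were 6.99% and 2.83%. The 9 listed markers, Fgl2 among them, summed to 2667, 2262 and 1272 CPM in the least, middle and most pigmented terciles. Ccl21a was at 1699 CPM in the middle tercile. Its median UMIs per cell were 13, 14 and 14 in the same order, at the depths given above. Of 12 immediate early genes 5 were at least 2-fold higher in the least and 1 in the most pigmented tercile. The part of lymphatic RNA and of dissociation stress in the differences between terciles was not tested.

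**Figure D5:**
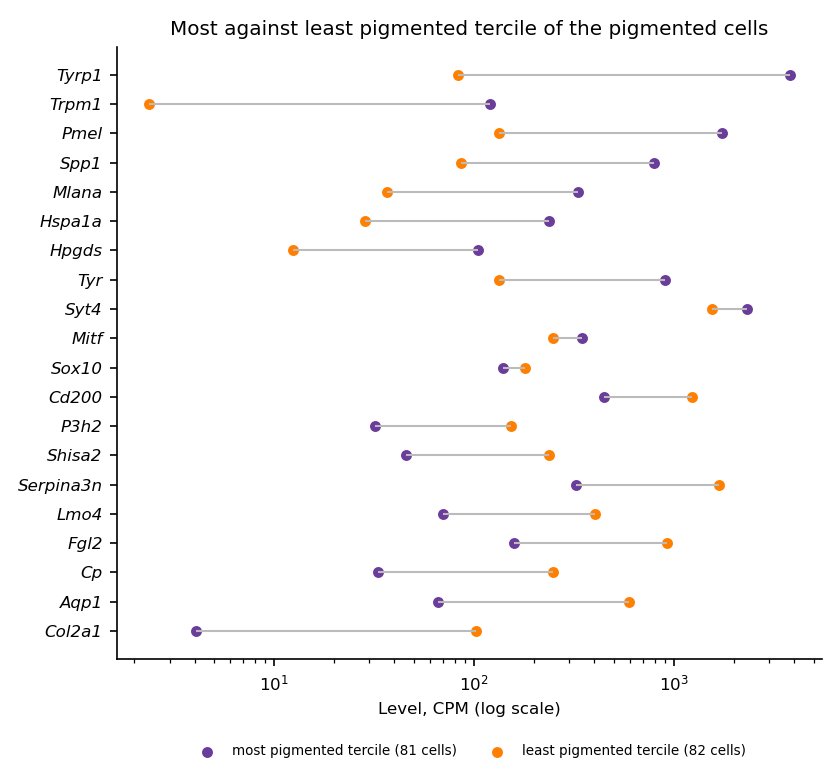
Level in CPM (x axis, log scale) of 20 genes in the most and the least pigmented tercile of the pigmented cells of the LEC sort, ranked by the share of UMIs in Tyrp1, Pmel and Tyr; grey lines join the 2 values of a gene. Tyrp1, Pmel and Tyr set the ranking; Mitf and Sox10 lie closest together, and Col2a1, Aqp1 and Cp are the furthest to the side of the least pigmented tercile.

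The share of cells with at least 2 cell cycle UMIs at 5000 UMIs was 18.3% in the least (10.6 to 28.4), 24.7% in the middle (15.8 to 35.5) and 13.6% in the most pigmented tercile (6.98 to 23.0), and these intervals overlapped. All 14 glycolysis genes that passed had the higher level in the most pigmented tercile, and 0 of them by 2-fold. MHC class I genes had a median log2 ratio of 0.05 between the terciles. Over the 244 cells thinned to 5000 UMIs, Dct had a Spearman rho of 0.66 with Tyrp1, 0.68 with Tyr, 0.62 with Gpnmb and 0.33 with Pmel, and Tyrp1 had a rho of -0.50 with Cd200. These are descriptions of cells that share libraries and that the rule had chosen by the sum of Dct, Tyrp1, Tyr and Pmel. The thinned medians behind the rho values were 70 UMIs for Dct and 3 or fewer for Tyrp1, Tyr and Pmel.

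Single cells carried much of some genes. By variance over the Poisson expectation after scaling for depth, the 12 most variable genes were Spp1, Malat1, Ccl21a, Cst3, Hspb1, Hspa1a, Dct, Tmsb4x, Lgals3, Fth1, Tyrp1 and H2afz. For Hspb1, a small heat shock protein, 1 cell held 35.9% of the UMIs. For Lgals3, galectin 3, the values ran from 0 through 57 to 731 UMIs, with 3.26% of UMIs in the highest cell.

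The same rule in the BEC sort gave 13 cells with a median of 30286 UMIs, in which 1 UMI was worth 2.29 CPM. Of 2933 genes with a mean of at least 50 CPM, 69 (2.35%) were at least 2-fold higher and 80 (2.73%) at least 2-fold lower in the pigmented cells of the LEC sort. None of the 7 melanocytic markers was 2-fold apart. The rule had used 4 of them in both sorts, and few of all genes were 2-fold apart, so the count does not set the markers apart. Dct was at 16949.5 CPM in the LEC and 12311 CPM in the BEC sort and Tyrp1 at 1795 and 1837 CPM. Sox10 was at 155 and 151 CPM and Mitf at 309 and 556 CPM. Syt4, which was not used by the rule, was at 2047 and 1999 CPM, and Mt1 at 2016 and 1901 CPM.

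Several of the genes with the highest ratios between the 2 sorts of pigmented cells were endothelial genes. Higher in the LEC sort were Fcgr2b, Hspa1a, Ccl21a, Nts, Arl4a and Map1b. Ccl21a was at 1351 against 11.4 CPM and Nts, which encodes neurotensin and was at 3632 CPM in the Prox1 cells, at 132 against 6.86 CPM. Higher in the BEC sort were Esm1, Igfbp3, Esam, Gpihbp1, Igfbp7 and Fabp4. Esm1, a marker of growing blood vessel tips, was at 2.70 CPM in the LEC and 101 CPM in the BEC sort, and Plvap, of blood vessel walls, at 56.7 and 219.6 CPM. The part of endothelial RNA in these differences was not tested.

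Fcgr2b did not follow the Prox1 cells. This inhibitory receptor for IgG was at 119 CPM in the pigmented cells of this sort, from 0 through 2 to 28 UMIs per cell, with a UMI in 134 of 244 cells, against 5.30 CPM in the Prox1 cells. The 13 pigmented cells of the BEC sort had 0 UMIs of it, so the level was at least 17.3-fold higher in the LEC sort against a floor of 3 counts over those cells. Among the terciles, the least pigmented one had 189 CPM and the most pigmented one 61.9 CPM of Fcgr2b.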

How the data were processed

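The authors deposited 1 table of raw UMI counts for 28692 symbols in 7635 cells. The submitters' processing notes name Cell Ranger (2.1.1) and mm10. How cells were filtered is not stated; every cell held at least 5288 UMIs and at most 10.0% mitochondrial UMIs. The members, gene lists and comparisons were chosen with earlier results of these data known, and the terciles after the values were seen. Counts were summed over the cells of a group and given as CPM, with exact Poisson intervals, exact conditional binomial intervals for ratios and exact Clopper-Pearson intervals for shares, all at the 95% level. Log2 ratios used a pseudocount of 1 CPM. Genes with a mean of 20 CPM in the 2 groups entered the comparison (50 CPM between the sorts), and "at least 2-fold" refers to the ratio of CPM. No cell was too shallow for thinning to 5000 UMIs (seed 1). No doublet caller was run.

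The rule for genes to name took the 12 with the highest ratio in each direction (6 between the sorts, 8 between terciles), all members of the pigment, regulator, receptor and metallothionein lists, the 4 highest members of each other list, the 10 with the most UMIs and the 12 most variable; not all of these are printed, and some listed genes are not reported here. Other listed genes were named after their values were seen. Gene positions came from GENCODE M21 (380 of 383 symbols with 1 position) and promoters from RefSeq (GRCm38.p6). On simulated counts for 5605 genes, 100% of 200 genes set 4-fold apart between pigmented and Prox1 cells were recovered. Since the limit for a call was 2-fold, this says nothing about genes near that limit. Python 3.11.15, numpy 2.4.6, scipy 1.17.1, pandas 2.3.3 and matplotlib 3.10.9 were used.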

Additional observations from a re-analysis of the deposited data

Results flagged for a closer look

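The cells of the LEC sort with both pigment and endothelial UMIs, 35 of 4407 or 0.794% (exact 95% interval 0.554 to 1.10), entered no comparison. They held a median of 389 pigment UMIs and 9 UMIs of Pecam1 and Cdh5, up to 21. Their median depth was 34701 UMIs, against 26718 in the pigmented and 11351 in the Prox1 cells. Their Prox1 level was 87.5 CPM, against 8.85 CPM and 394 CPM, and their Sox10 level 102 CPM, against 155 CPM and 2.90 CPM. In the BEC sort 9 cells, or 0.279%, were of this kind, with 0 UMIs of Prox1 and Pecam1 at 215 CPM. Whether these are joined cells was not tested.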

How the results depend on the processing

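No paired analysis was possible because the cell columns carry no replicate number, and for the same reason no library could be left out. The share of pigmented cells was 4.33% with Pecam1 and Cdh5 at 0 UMIs and 6.33% with no limit on them. Genes at least 2-fold higher and lower than in the Prox1 cells numbered 346 and 466 at a mean of 50 CPM, 2766 and 5729 with no minimum, and 1438 and 2244 with the 1 pigmented cell that lacked Prox1, Lyve1, Flt4 and Ccl21a; fewer or more genes tested, or 1 cell, set these counts. Between the sorts they were 497 and 769 with Pecam1 and Cdh5 at 0 UMIs, which left 3 cells of the BEC sort, and 7 and 4 at a mean of 200 CPM. The cycling share was 48.0% unthinned, 34.8% at 1 UMI and 13.1% at 3 UMIs. Division of the pigmented cells into 2 groups in place of 3 gave 60 and 197 genes. The other counts stayed within 1.5 times and the other shares inside the interval. Centring on the median ratio turned the balance between the sorts from 69 higher and 80 lower to 81 and 68. Of 249 named genes, 165 were 2-fold apart, and all 165 kept this with the mean over cells, with Prox1 cells under 5 pigment UMIs and without the 17 cells rich in endothelial markers; of all 249, the sign was the same for 244, 248 and 249 in these settings. The 13 pigmented cells of the BEC sort limit that comparison, since 3 UMIs there are worth 6.86 CPM. A difference between animals or libraries cannot be told apart from one between groups.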
